A study of Mus musculus with 6 samples.

Results

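The genes described here are 8 targets of the transcription factor NF-κB, several of which feed back on it: Nfkbia, Nfkbiz, Tnfaip3, Zfp36, Nfkb1, Tnf, Icam1 and Sod2. They were taken by symbol as a list of well known NF-κB targets, and 8 of the 8 were found among the 23016 genes of the count tables. Single-cell RNA-seq libraries had been made with 10x Chromium 3′ v3.1 chemistry from wild-type mice, with 1 library in each of 6 groups. The groups were marrow of aged mice and marrow of young mice a day after an experimental stroke by middle cerebral artery occlusion, blood of aged mice and blood of young mice with no treatment, and marrow of aged mice and marrow of young mice at steady state with no treatment. Marrow was enriched for Gr1+ and for c-kit+ cells, and blood was sorted into CD11b+ Ly6G- and CD11b+ Ly6G+ cells, so neither is whole tissue. How old the mice were, and how many went into a library, is not stated in the labels used here. Marrow after stroke was set against untreated marrow, so the occlusion and the surgery around it cannot be told apart. With 1 library per group there is no replicate, and a test of age or stroke asks only whether the effect was larger than its variation between contexts or between ages.

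NF-κB is a family of dimers that inhibitory IκB proteins hold in the cytoplasm of resting cells. Signals from Toll-like, interleukin-1 and tumour necrosis factor receptors activate the IκB kinase, the inhibitor is degraded, and the dimer moves to the nucleus and switches on inflammatory genes together with its own inhibitors. In neutrophils and monocytes the pathway is known for priming cytokine output and for prolonging survival. Among the 8 genes, Nfkbia encodes IκBα, the inhibitor that is resynthesised after each pulse, and Nfkbiz encodes IκBζ, a nuclear family member that permits a second wave of targets. Tnfaip3 encodes A20, a ubiquitin-editing enzyme that shuts off signalling above the kinase. Zfp36 encodes tristetraprolin, which binds the messenger RNA of Tnf and of other cytokines and speeds its decay. Nfkb1 encodes the precursor of the p50 subunit, and Tnf, Icam1 and Sod2 encode effectors: a cytokine, an adhesion molecule and the manganese superoxide dismutase of mitochondria.

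A κB element is the short sequence that the dimers bind, and the inhibitors are textbook cases of genes with such elements beside their start site. The proximal promoters that hold a match are shown because all members are described as targets of this factor. RefSeq promoter sequences on GRCm38.p6 were present for 6 of the 8 genes, and the NF-κB consensus of 10 bases was searched by name on both strands with overlaps allowed. In the 250 bases before the RefSeq start, 3 of these 6 genes held a match, against 2382 of 32851 promoter windows of that length, or 7.25%. The second share counts windows and not genes, and Tnfaip3 has 2 windows. RefSeq starts differ from the ends of the gene spans given below. By those spans the windows of Sod2, Zfp36 and Tnfaip3 lie inside the gene, wholly or but for a few bases. Each sequence is read 5′ to 3′ on the gene's strand, with the match in capitals.
Nfkbia, chr12:55492648-55492897, minus strand, match beginning 29 bases before the start: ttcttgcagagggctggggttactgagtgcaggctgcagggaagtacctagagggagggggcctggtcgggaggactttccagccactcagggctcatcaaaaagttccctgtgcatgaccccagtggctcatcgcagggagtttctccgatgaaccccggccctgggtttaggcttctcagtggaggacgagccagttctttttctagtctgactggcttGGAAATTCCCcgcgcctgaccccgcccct
Tnfaip3, first start site, chr10:19015516-19015545, minus strand, match beginning 125 bases before the start: gactcacgcgGGGACACCCCggggcgggac
Tnfaip3, first start site, chr10:19015411-19015440, minus strand, match beginning 12 bases before the start: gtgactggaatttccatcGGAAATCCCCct
Sod2, chr17:13007746-13007775, plus strand, match beginning 83 bases before the start: cggggcggacGGGGTTCCCCgaggcggggc
The windows of Tnf, Icam1, Zfp36 and a second start site of Tnfaip3 held no match, which says only that these letters are not in those windows. A match is a description of sequence and not a measured binding site.

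After filtering, 2641 cells of aged and 2257 cells of young stroke marrow, 5240 of aged and 1994 of young blood, and 6210 of aged and 7941 of young steady-state marrow remained. The libraries held 10208699 to 72743805 counts (unique molecular identifiers, UMIs) and shared 5 to 21 cell barcodes with one another. Cells were clustered on genes other than the 8 members and 71 further genes of the pathway, and clusters were named by markers, so that each name stands for cells like that type. The classes used were 3450 progenitors (stem cells and granulocyte-monocyte progenitors), 1327 dividing pre-neutrophils, 1173 immature, 855 intermediate and 4761 mature neutrophils, 1654 classical monocytes and 590 non-classical monocytes. Of the mature neutrophils, 3084 were in aged blood and 1591 in young blood, against only 25 in aged and 61 in young stroke marrow. Between 3.36% and 39.9% of the cells of a library stayed unnamed. Depth per cell differed between stroke and steady-state marrow, in a direction that depended on the class. Classical monocytes were deeper after stroke, with a median of 14325 UMIs in aged and 15226 in young stroke marrow, against 5490 in aged and 4189 in young steady-state marrow. Levels are given as CPM, the counts of a gene scaled to the summed counts of its class, and their intervals cover counting error only. Counts of the 3′ end compare the same gene between cells and not different genes with each other. In these sums, fewer expressing cells and less RNA per cell cannot be told apart, so shares of cells with a UMI are added where they bear on a result, after thinning each cell to 1000 UMIs.

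Over neutrophil maturation Zfp36, on chromosome 7 (28376784-28380253, minus strand, GRCm38), was higher at each stage than at the stage before. In dividing pre-neutrophils its level was 27.0 CPM in aged and 31.8 CPM in young stroke marrow, and 34.7 CPM in aged and 39.9 CPM in young steady-state marrow. In immature neutrophils it was 60.7 and 58.2 CPM in aged and young stroke marrow, and 68.1 and 86.9 CPM in aged and young steady-state marrow. In intermediate neutrophils, which carry Retnlg, it was 142 and 151 CPM in aged and young stroke marrow, and 129.0 and 169 CPM in aged and young steady-state marrow. In mature neutrophils it was 546 and 540.4 CPM in aged and young stroke marrow, and 871 and 1250.1 CPM in aged and young blood. No library of a later stage overlapped one of the stage before it. The earlier stages all came from marrow. For the mature cells of blood, here and for the genes below, stage cannot be told apart from tissue and sort. After thinning, 55.8% of the mature neutrophils of aged blood (exact 95% interval 54.0 to 57.6) and 68.4% of those of young blood (66.0 to 70.7) had a UMI of Zfp36, against 14.3% and 37.5% of the few erythroid cells in the same blood libraries. Without thinning, 93.2% of mature neutrophils of aged blood and 95.8% of those of young blood had one. Median depth per cell was 4019 and 3910 UMIs in these neutrophils and 8586 and 8208 UMIs in the erythroid cells.

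Nfkbiz, on chromosome 16 (55811375-55838899, minus strand), had a similar course, with a wider gap before the mature stage. Its level lay at 12.99 to 14.6 CPM in the 4 sums of dividing pre-neutrophils, at 14.1 to 26.0 CPM in immature and at 23.7 to 44.6 CPM in intermediate neutrophils. In mature neutrophils it was 158 CPM (11 counts) in aged and 109 CPM (24 counts) in young stroke marrow, and 378.8 CPM in aged and 499 CPM in young blood. Every library of mature neutrophils was above every library of the earlier stages. In blood the erythroid cells, taken as a background, held Zfp36 at 20.3% of the level of mature neutrophils in the aged library and 35.8% in the young library. For Nfkbiz the shares were 22.0% and 32.8%, and for the summed markers of mature neutrophils 18.8% and 33.3%. The levels of both genes in erythroid cells of blood thus stood in about the ratio of the neutrophil markers, and in erythroid cells of steady-state marrow Zfp36 was at 3.75 CPM in the aged and 8.39 CPM in the young library.

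Nfkbia, on chromosome 12 (55489410-55492647, minus strand), showed no such gradient. Its level was 290.4 and 273 CPM in dividing pre-neutrophils of aged and young stroke marrow, and 204.5 and 189.7 CPM in those of aged and young steady-state marrow. In immature neutrophils it was 220.1 and 202.5 CPM in aged and young stroke marrow, and 163 and 129 CPM in aged and young steady-state marrow. In mature neutrophils it was 459.5 CPM (32 counts) and 499.5 CPM (110 counts) in aged and young stroke marrow, and 226 and 262 CPM in aged and young blood. The mature cells of stroke marrow were above those of blood, although they rest on few counts, and the earlier stages of stroke marrow were above those of steady-state marrow.

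The remaining feedback gene, Tnfaip3 on chromosome 10 (19000910-19015657, minus strand), was low in neutrophils. In mature neutrophils of blood it had 13.5 CPM in the aged library and 13.2 CPM in the young library. In stroke marrow no count was seen in 25 aged mature neutrophils, which allows up to 53.0 CPM, and 1 count was seen in the young ones. In dividing to intermediate neutrophils it lay between 0.637 and 12.1 CPM. The classes with the highest means over libraries were T cells, with 35.8 CPM and a range from 4.77 to 51.7 CPM, and basophils and mast cells, with 28.4 CPM and a range from 13.3 to 71.3 CPM. Non-classical monocytes had 21.7 CPM in aged and 28.3 CPM in young blood, and these ranges overlap.

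Among the effectors, Tnf on chromosome 17 (35199381-35202007, minus strand) was detected at every neutrophil stage except in the aged mature cells of stroke marrow, where 0 counts also allow up to 53.0 CPM. It lay between 15.7 and 21.2 CPM in dividing pre-neutrophils, between 16.3 and 26.2 CPM in immature and between 15.4 and 27.2 CPM in intermediate neutrophils. Mature neutrophils of blood had 40.3 CPM in the aged and 35.6 CPM in the young library. In classical monocytes it was 9.21 and 9.08 CPM in aged and young stroke marrow, 6.52 and 13.7 CPM in aged and young blood, and 8.58 and 9.22 CPM in aged and young steady-state marrow. Each of these sums of classical monocytes was below each sum of neutrophils from marrow at the dividing, immature and intermediate stages. Non-classical monocytes of blood were above those marrow sums, at 35.8 CPM in the aged and 40.1 CPM in the young library. Their levels were near those of the mature neutrophils of blood. Mature neutrophils of young stroke marrow had 13.6 CPM, from 3 counts, which are too few to place them.

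Icam1, on chromosome 9 (21015985-21028817, plus strand), was lower in neutrophils of marrow than in monocytes. Its level was between 0.413 and 1.79 CPM in dividing pre-neutrophils, between 0.839 and 1.35 CPM in immature and between 0.716 and 2.55 CPM in intermediate neutrophils. Mature neutrophils of blood had 11.1 CPM in the aged and 9.51 CPM in the young library, and those of stroke marrow had 1 count in the aged and 2 counts in the young library. Classical monocytes had 24.9 and 18.2 CPM in aged and young stroke marrow, 47.1 and 52.4 CPM in aged and young blood, and 23.3 and 15.6 CPM in aged and young steady-state marrow. Non-classical monocytes, seen in blood, had 42.3 CPM in the aged and 70.7 CPM in the young library. The classical and non-classical monocytes were thus above the neutrophils of each stage up to intermediate and above the mature neutrophils of blood, while the counts in mature neutrophils of stroke marrow are too few to place them. Dividing monocyte precursors, at 8.39 to 12.3 CPM, overlapped the mature neutrophils. Strand use in the counting is not given, and 121 UMIs in all were assigned to Gm47079 on the opposite strand of Icam1.

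Sod2, on chromosome 17 (13006846-13040063, plus strand), was higher in progenitors than in neutrophils. Granulocyte-monocyte progenitors ranged from 137 to 204.6 CPM over their libraries, and erythroid cells of steady-state marrow were higher still, at 209.7 CPM in the aged and 214 CPM in the young library. The level was 29.7 to 36.1 CPM in dividing pre-neutrophils, 15.7 to 21.9 CPM in immature and 4.46 to 23.7 CPM in intermediate neutrophils. Mature neutrophils of blood had 32.2 CPM in the aged library and 21.1 CPM in the young library. Classical monocytes kept a level of 83.3 to 115.8 CPM in the 6 libraries. Nfkb1, on chromosome 3 (135584655-135691547, minus strand), was lowest in immature neutrophils with a mean of 36.0 CPM and highest in non-classical monocytes, at 333 CPM in the aged and 372 CPM in the young library.

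**Figure D1:**
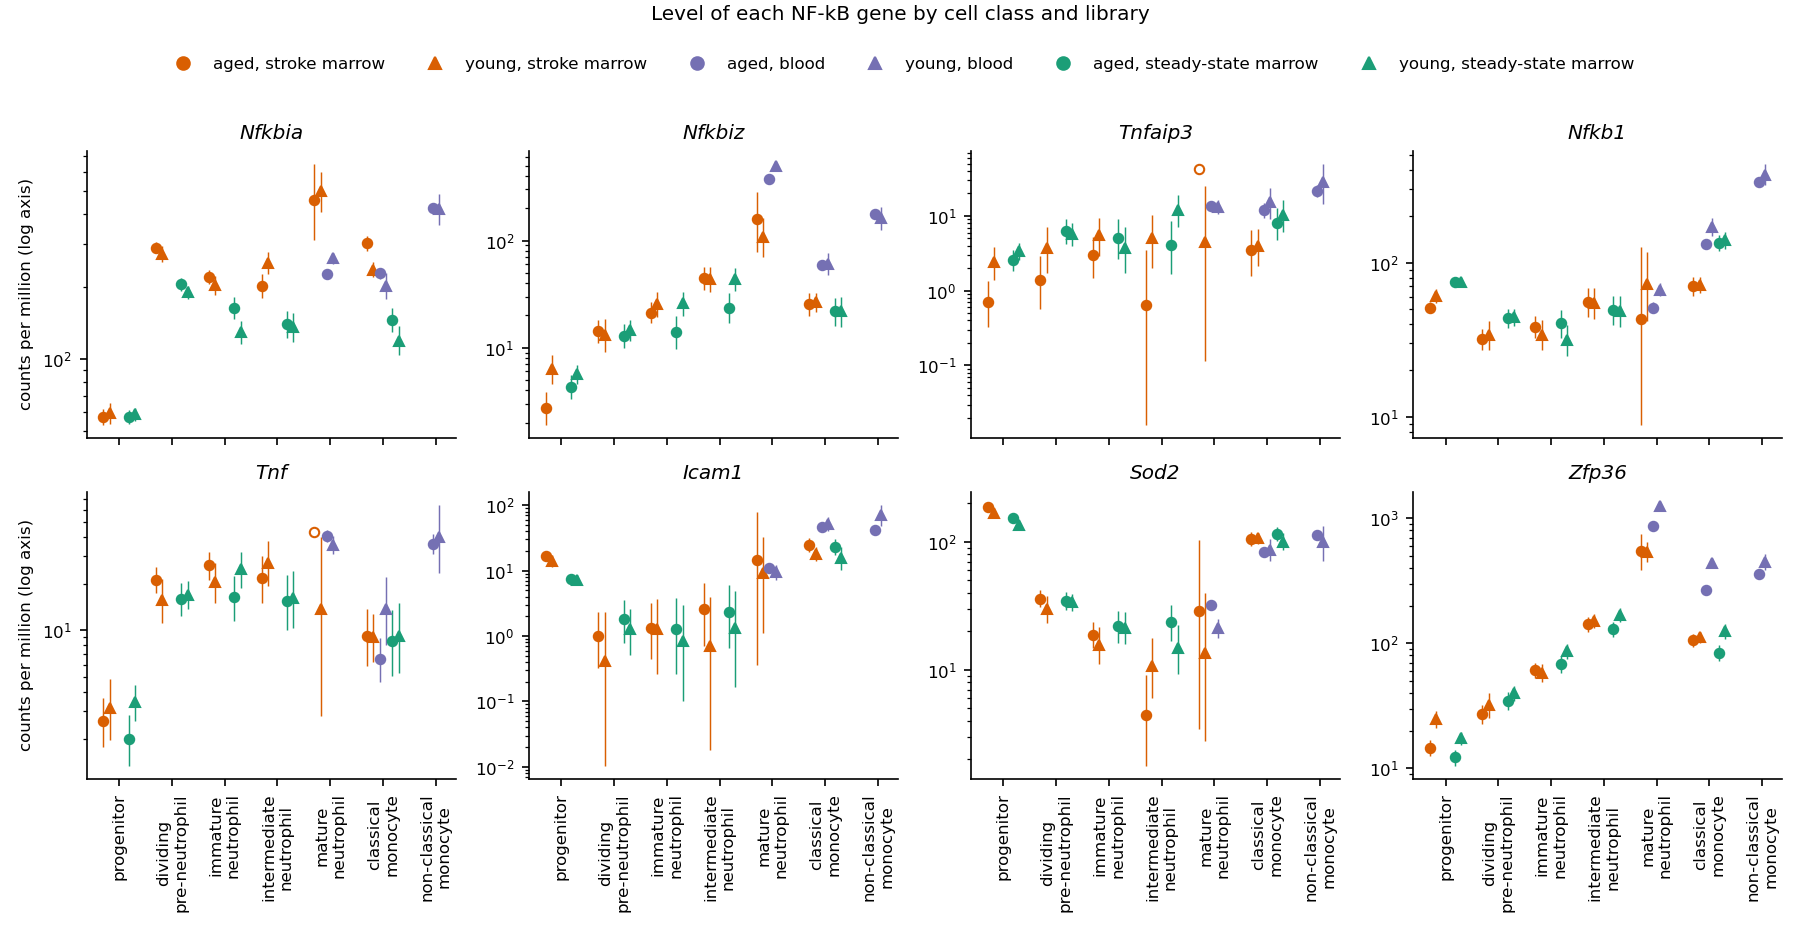
Level of each of the 8 genes in CPM on a log axis, by cell class from progenitors through the neutrophil stages to the monocytes; circles are aged and triangles young libraries, colours give stroke marrow, blood and steady-state marrow, bars are exact 95% Poisson intervals, and open symbols mark sums with 0 counts drawn at the floor of 3 counts. Zfp36 and Nfkbiz climb over the stages to mature neutrophils, where blood has 378.8 to 1250.1 CPM of the pair, while Icam1 stays under 3 CPM from dividing to intermediate neutrophils and Sod2 is higher in progenitors than in the neutrophil stages. The mature cells of blood differ from the marrow stages in tissue and sort as well as in stage.

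Immature neutrophils were tested against dividing pre-neutrophils over the 4 marrow libraries, with the library as a block, in edgeR's quasi-likelihood test with Benjamini-Hochberg adjustment. Of the 8 genes, 7 passed the filter on low counts and 4 were called, 3 higher and 1 lower in immature neutrophils, while 52.7% of all 9264 genes tested were called, 26.1% higher and 26.6% lower, so the count is no more than the background. Zfp36 was higher by 1.36 ± 0.11 on the log2 scale (SE, edgeR adjusted p = 7.6e-07), and Nfkbiz by 0.95 ± 0.17 (edgeR adjusted p = 0.00056). Tnf was higher by 0.64 ± 0.15 (edgeR adjusted p = 0.0033). Sod2 was lower, with a log2 fold change of -0.47 ± 0.13 (edgeR adjusted p = 0.0097). Nfkbia at -0.11 ± 0.09, Nfkb1 at 0.24 ± 0.14 and Tnfaip3 at 0.38 ± 0.33 did not pass, and Nfkb1 turned to -0.08 with total counts in place of scaling factors, which move the median of all genes by -0.29. Icam1 did not pass the filter. In the intermediate cells against dividing pre-neutrophils the fold changes of Zfp36, at 2.36, and of Nfkbiz, at 1.67, were called, as were a higher Nfkb1 at 0.65 and a lower Sod2 at -1.15, beside 61.7% of 8672 genes called (29.7% higher, 32% lower).

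Mature neutrophils could be set against immature ones in the same libraries only in stroke marrow, and only with the minimum lowered to 20 cells of a class. The fit rests on 2 libraries, with 25 aged and 61 young mature cells. The spread between libraries is poorly measured there, and its p-values lean on the spread of all genes. Of 6 members tested, 2 were higher in mature cells, against 29.2% of 6219 genes called in either direction, 12.7% higher and 16.4% lower. Zfp36 had a log2 fold change of 2.32 ± 0.26 (SE, edgeR adjusted p = 7.3e-17) and Nfkbiz of 1.54 ± 0.42 (edgeR adjusted p = 0.0016). Nfkbia, at 0.34 ± 0.24, did not pass. As CPM, given above, Nfkbia was higher in mature than in immature cells of both stroke libraries. The fit uses scaling factors and CPM does not, so the reading of Nfkbia depends on which is taken. Tnf, at -1.95 ± 0.87 (edgeR adjusted p = 0.078), did not pass either and rests on 3 counts in mature cells.

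Among 71 other genes of the pathway, 54 were tested between immature and dividing cells, where 20 were higher and 5 lower, with a median log2 fold change of 0.35 against 0.03 over all genes. Of the other inhibitors, 4 of 13 were higher and none lower, near the 26.1% of all genes called higher, among them Nfkbie (0.74), an IκB, and Cyld (0.37), a deubiquitinase. Cyld differed little as CPM. In stroke marrow it was at 26.16 and 27.17 CPM in aged and young immature cells, against 23.58 and 25.62 CPM in dividing cells. In steady-state marrow it was at 39.43 and 44.91 CPM, against 38.53 and 45.88 CPM. Nfkbie was higher as CPM in each young library, with 7.641 against 5.371 CPM in young stroke marrow. In aged libraries it differed little, at 5.125 against 5.039 CPM in stroke and 6.429 against 6.944 CPM in steady-state marrow. The receptor Tlr2 (1.53) and the kinase Irak4 (1.08) were higher and the receptor Tnfrsf1b (-1.25) lower in immature cells. Of the other targets, 9 of 19 were higher and 4 lower, with Il1rn (1.61), the interleukin-1 receptor antagonist, on one side and Il1b (-1.92), the cytokine itself, on the other. None of the 4 further subunits tested was called. In mature against immature cells of stroke marrow 22 of 49 such genes were higher and 2 lower, beside 12.7% and 16.4% of all genes, with a median of 1.04 against -0.25 over all genes.

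Classical monocytes differed from mature neutrophils in most of the 8 genes, in both directions. Aged blood, young blood and young stroke marrow had enough cells of both classes, and 3 of 8 members were higher and 4 lower in monocytes, beside 65.9% of 11691 genes called, 35.2% higher and 30.7% lower. Icam1 was higher in monocytes by 1.72 ± 0.29 on the log2 scale (SE, edgeR adjusted p = 1.9e-05), Sod2 by 1.45 ± 0.30 (edgeR adjusted p = 0.0002) and Nfkb1 by 0.69 ± 0.28 (edgeR adjusted p = 0.03). Nfkbiz was lower with a log2 fold change of -2.94 ± 0.34 (edgeR adjusted p = 1.1e-07), as were Tnf at -2.31 ± 0.36 (edgeR adjusted p = 8.5e-06) and Zfp36 at -2.12 ± 0.30 (edgeR adjusted p = 2e-06). Nfkbia was lower at -0.76 ± 0.28 (edgeR adjusted p = 0.019), and Tnfaip3 at -0.50 ± 0.33 (edgeR adjusted p = 0.19) did not pass.

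The Nfkbia and Nfkb1 calls between these lineages were the least secure. Nfkbia lost its call with total counts (-0.46, edgeR adjusted p = 0.076), which move the median of all genes by 0.50, and in cells thinned to 1000 UMIs (-0.62, edgeR adjusted p = 0.061). Nfkb1 lost its call with a coarser clustering (edgeR adjusted p = 0.26) and without aged blood (edgeR adjusted p = 0.30). With at least 20 cells, which adds aged stroke marrow, neither was called, 2 members were higher and 3 lower, and 62.7% of 11009 genes were called (35.3% higher, 27.3% lower). Without young blood 4 of the 8 genes were called, and Icam1 was at 1.43 (edgeR adjusted p = 0.064). Classical monocytes of blood held the mature neutrophil markers at 9.92% of the neutrophil level in the aged and 9.26% in the young library. Zfp36 stood at 30.5% and 34.8% of that level in these monocytes, and Nfkbiz at 15.7% and 12.1%. The part of carried-over neutrophil RNA in these levels was not tested.

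Of the other genes of the pathway, 37 of 63 were lower and 7 higher in monocytes than in mature neutrophils, with a median log2 fold change of -1.02 against 0.09 over all genes. Among the other inhibitors, 9 of 14 were lower and 2 higher, with Zc3h12a, an RNase that degrades cytokine messages, at -2.15 and Nfkbid, a nuclear IκB, at -2.86. The receptors Cd14 (-1.54) and Tlr4 (-2.19) were lower, and the IκB kinase subunit gene Ikbkb (1.46) was higher in monocytes. Il1b had 66.3 CPM in monocytes of aged and 128.9 CPM in those of young blood, against 4510 and 4961 CPM in the mature neutrophils of the same libraries.

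**Figure D2:**
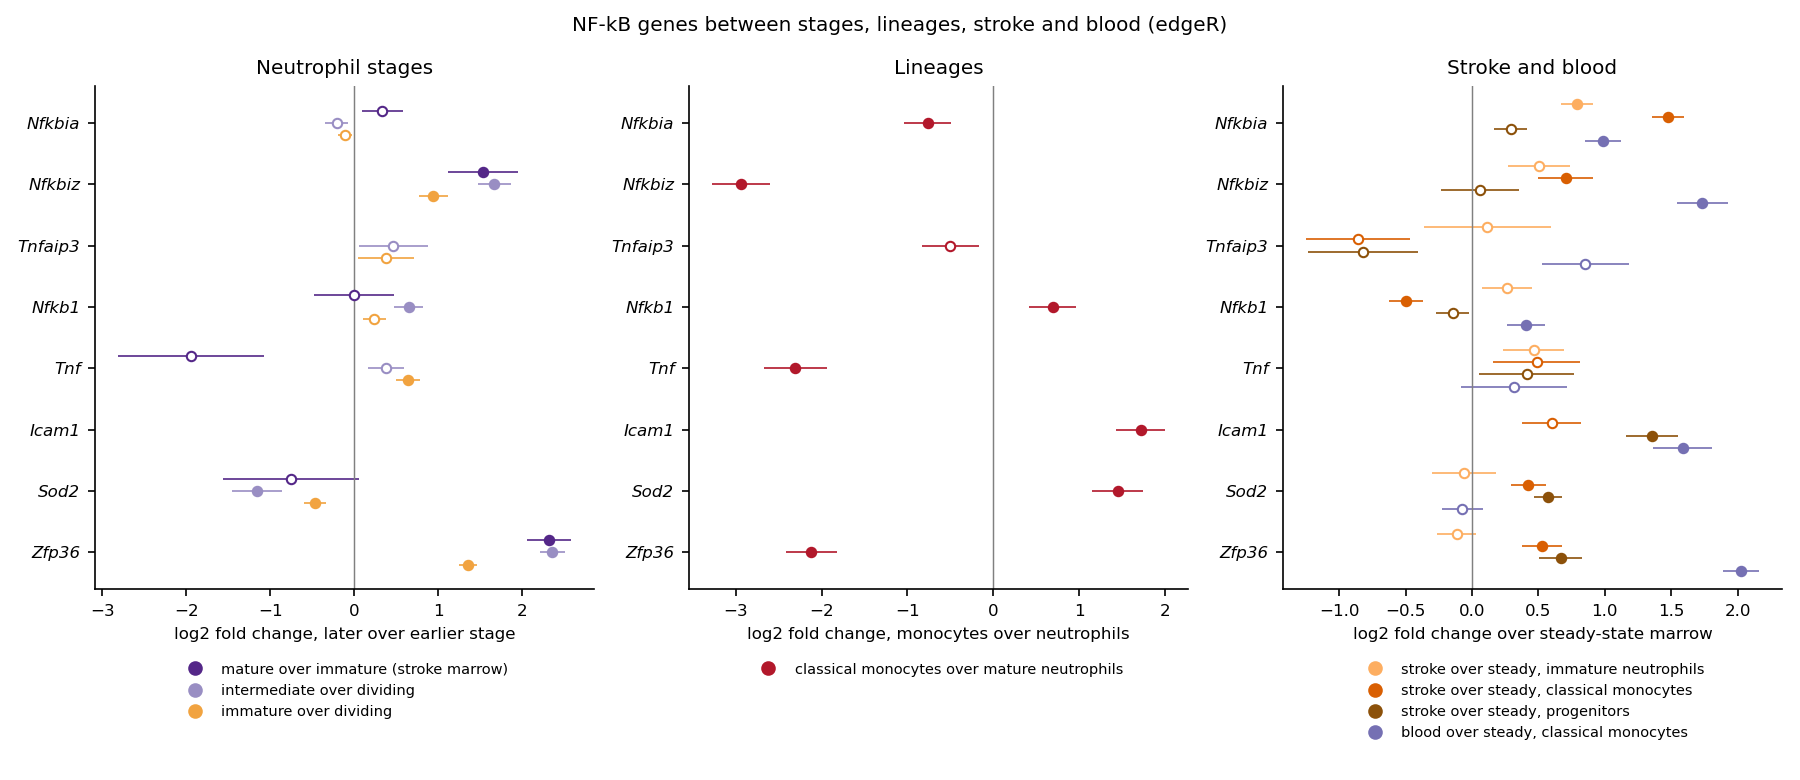
Log2 fold changes with standard errors from edgeR for the 8 genes in comparisons of neutrophil stages, of monocytes with mature neutrophils and of blood or stroke marrow with steady-state marrow; filled points have an adjusted p under 0.05 and open points do not, and a positive value means higher in the group named first. Zfp36 and Nfkbiz lie right of 0 with maturation and left of 0 in monocytes against mature neutrophils, with values of 1.36 and 0.95 and of -2.12 and -2.94.

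Classical monocytes of blood had more of several members than those of steady-state marrow. Zfp36 was at 266 CPM in monocytes of aged and 435 CPM in those of young blood, against 83.9 and 124 CPM in aged and young steady-state marrow. Nfkbiz was at 59.3 and 60.4 CPM in aged and young blood, against 21.9 CPM in each of the steady-state libraries. Nfkbia was at 227 and 202 CPM in aged and young blood, against 145 and 119 CPM in aged and young steady-state marrow. In each of these genes both blood libraries were above both marrow libraries. Of the 8 members 5 were called, all higher in blood, while 30.7% of 9433 genes were called, 16.3% higher and 14.4% lower. The log2 fold changes were 2.02 ± 0.14 for Zfp36 (edgeR adjusted p = 4.3e-08) and 1.73 ± 0.19 for Nfkbiz (edgeR adjusted p = 6.7e-06). Icam1 had 1.59 ± 0.22 (edgeR adjusted p = 6.8e-05) and Nfkbia 0.99 ± 0.14 (edgeR adjusted p = 6.2e-05).

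Nfkb1 had 0.41 ± 0.14 (edgeR adjusted p = 0.043), a call that was lost with total counts (edgeR adjusted p = 0.12). Tnfaip3 at 0.85 ± 0.33 (edgeR adjusted p = 0.062), Tnf at 0.31 ± 0.40 and Sod2 at -0.07 ± 0.15 did not pass. The summed markers of mature neutrophils in these monocytes were 3021 and 2546 CPM in aged and young blood and 2335 and 2342 CPM in aged and young steady-state marrow. After thinning, 23.7% of classical monocytes of aged and 39.4% of those of young blood had a UMI of Zfp36, against 10.3% and 11.5% in aged and young steady-state marrow. The share in blood erythroid cells was 14.3% in the aged and 37.5% in the young library, so in young blood the share in monocytes is close to this background. The CPM of Zfp36 in these monocytes was 30.5% and 34.8% of the neutrophil level in aged and young blood, and that of the summed neutrophil markers was 9.92% and 9.26%; the part of neutrophil RNA in the blood values was not tested. Blood monocytes and marrow monocytes also differed in how they were isolated, which cannot be told apart from the tissue. Higher levels in blood were not confined to monocytes. In NK cells the log2 ratio of blood over steady-state marrow for Zfp36 was 0.82 in aged and 1.21 in young mice. For Nfkbiz it was 1.02 and 1.25 in these cells, and for Icam1 2.42 and 2.33. For Nfkbia it was 0.14 and -0.22, and both counting intervals included 0.

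Of the other pathway genes 29 of 54 were higher and 2 lower in blood monocytes, with a median log2 fold change of 0.62 against 0.00 over all genes. Relb (1.19), Nfkb2 (1.06) and Rel (0.46), which encode further NF-κB subunits, were 3 of the 4 subunits tested, and each was called higher. Zfp36l2, a relative of Zfp36, was at 418 and 535 CPM in aged and young blood, against 111 and 139 CPM in aged and young steady-state marrow. The receptor genes Cd14 (1.78) and Tnfrsf1b (1.41) were higher, while Vcam1 (-7.13), an adhesion gene, was lower in blood. Of 19 immediate-early genes, which respond within minutes to handling or stimulation, 15 were higher and 1 lower in blood monocytes, beside 16.3% and 14.4% of all genes.

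After stroke, Nfkbia was higher in immature and intermediate neutrophils and in classical monocytes of marrow; in progenitors it was not called, at 0.29 on the log2 scale. In classical monocytes it was at 303 CPM (790 counts) in aged and 236 CPM (831 counts) in young stroke marrow, against 145 CPM (305 counts) in aged and 119 CPM (207 counts) in young steady-state marrow. Both stroke libraries were above both steady-state libraries here, as in immature neutrophils. Within an age the log2 ratio of these levels was 1.06 (95% counting interval 0.87 to 1.26) in aged and 0.98 (0.76 to 1.21) in young monocytes. In immature neutrophils it was 0.43 (0.25 to 0.61) in aged and 0.65 (0.44 to 0.86) in young marrow. After thinning, 27.0% of monocytes of aged and 22.3% of those of young stroke marrow had a UMI of Nfkbia, against 16.0% and 9.58% in aged and young steady-state marrow.

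In immature neutrophils 1 of 7 members tested was called, against 23.5% of 7498 genes (13.6% higher, 9.95% lower). Nfkbia was higher after stroke with a log2 fold change of 0.79 ± 0.12 (SE, edgeR adjusted p = 2.8e-09), and with total counts, which move the median of all genes by -0.27, it was 0.53 (edgeR adjusted p = 9.8e-05). In thinned cells it was 0.54 and not called (edgeR adjusted p = 0.19). In intermediate neutrophils Nfkbia at 0.91 ± 0.14 (edgeR adjusted p = 0.00029) and Tnf at 0.82 ± 0.28 (edgeR adjusted p = 0.047) were called higher, 2 of 6 members against 23.6% of 6524 genes (13.2% higher, 10.4% lower). Nfkbiz at 0.50 ± 0.23 (edgeR adjusted p = 0.098), Tnf at 0.47 ± 0.23 (edgeR adjusted p = 0.13) and Zfp36 at -0.11 ± 0.15 did not pass in immature cells. The summed mature neutrophil markers in these immature cells were 7244 and 6687 CPM in aged and young stroke marrow, against 2193 and 2121 CPM in aged and young steady-state marrow. The part of this difference in maturity in the Nfkbia result was not tested.

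In classical monocytes 5 of 8 members were called after stroke, 4 higher and 1 lower, against 33.7% of 9889 genes (18.2% higher, 15.5% lower). Nfkbia was higher by 1.47 ± 0.12 on the log2 scale (SE, edgeR adjusted p = 1.7e-05), and it was called under every alternative tried, at 0.84 to 1.49. Nfkbiz at 0.71 ± 0.21 (edgeR adjusted p = 0.025), Zfp36 at 0.53 ± 0.15 (edgeR adjusted p = 0.022) and Sod2 at 0.43 ± 0.13 (edgeR adjusted p = 0.03) were called higher, but with total counts, which move the median of all genes by -0.47, they were at 0.26, 0.08 and -0.03 and not called. With doublets kept, Nfkbiz turned to -0.39 and Zfp36 to -0.23. As CPM, Zfp36 was at 105.6 and 112 CPM in aged and young stroke marrow, against 83.9 and 124 CPM in aged and young steady-state marrow, so the libraries overlap. Sod2 likewise overlapped, with 105.6 and 106 CPM in aged and young stroke marrow against 115.8 and 100.2 CPM in aged and young steady-state marrow. Nfkb1 was lower at -0.50 ± 0.13 (edgeR adjusted p = 0.014) and at -0.95 with total counts. Its level was 70.2 and 71.8 CPM in aged and young stroke marrow, against 135 and 139 CPM in aged and young steady-state marrow.

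Neutrophil transcripts moved with these monocyte results. The cluster of classical monocytes in stroke marrow had 3 classical monocyte and 3 immature neutrophil markers among its 10 leading genes. The granule genes Camp, Ltf, Ngp and Lcn2 summed to 17440 CPM in classical monocytes of aged and 5780 CPM in those of young stroke marrow, against 1771 and 1267 CPM in aged and young steady-state marrow. Markers of mature neutrophils summed to 6593 and 4492 CPM in aged and young stroke marrow, against 2335 and 2342 CPM in aged and young steady-state marrow. The monocyte markers summed to 7339 and 9688 CPM in aged and young stroke marrow, against 12340 and 12350 CPM in aged and young steady-state marrow. The doublet caller marked only 0.527% and 0.353% of the cells of aged and young stroke marrow, which is too few to count on doublets having been removed there. The part of doublets and of other neutrophil RNA in the member values was not tested.

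Of the other pathway genes, 21 of 59 were higher and 4 lower in stroke monocytes, beside 18.2% and 15.5% of all genes, with a median log2 fold change of 0.20 against -0.02 over all genes. Among 13 other inhibitors 3 were higher, near the background, and none lower: Zfp36l1 (2.74) and Zfp36l2 (0.67), both relatives of Zfp36, and Otulin (0.73), a deubiquitinase. The receptor genes Cd14 (2.07), Il1rap (1.47) and Tlr4 (0.85) were higher. Saa3, an acute-phase gene, was at 1626 and 1375 CPM in aged and young stroke marrow, against 1.43 and 1.73 CPM in aged and young steady-state marrow. Il1b was at 64.1 and 30.6 CPM in aged and young stroke marrow, against 7.62 and 10.4 CPM in aged and young steady-state marrow. Of 9 glucocorticoid-responsive genes tested 9 were higher (median 2.18), beside 18.2% of all genes. Of 17 interferon-stimulated genes, 14 were lower and none higher (median -1.40), beside 15.5% of all genes lower.

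In immature neutrophils after stroke 10 of 46 other pathway genes were higher and 1 lower, beside 13.6% and 9.95% of all genes, with a median log2 fold change of 0.20 against -0.01 over all genes. Bcl3, a nuclear IκB, had a log2 fold change of 2.76 ± 0.40 (edgeR adjusted p = 2.7e-10). Its level was 22.1 CPM (82 counts) and 7.22 CPM (17 counts) in aged and young stroke marrow. In aged and young steady-state marrow it was 3.86 CPM (9 counts) and 1.26 CPM (3 counts), the last at the floor. Nfkbid (0.89) and Zfp36l2 (1.04) were the other inhibitors called higher. Of receptors and kinases, Cd14 (1.78), Tlr4 (0.87) and Chuk (0.93) were higher and Irak1 (-0.70) lower. Cd14 rests on 25 and 14 counts in aged and young stroke marrow, against 0 and 11 in aged and young steady-state marrow. In young mice its level was 5.94 CPM after stroke against 4.62 CPM at steady state. Of targets, Clec4e (1.71), Plaur (1.23), Ier3 (0.84) and Lcn2 (0.34) were higher. Lcn2 differed little as CPM, with 22020 and 22140 CPM in aged and young stroke marrow, against 21620 and 19990 CPM in aged and young steady-state marrow.

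In progenitors 3 of 8 members were called higher after stroke, against 42.2% of 14034 genes (20.9% higher, 21.3% lower). Icam1 was at 16.5 and 14.0 CPM in aged and young stroke marrow, against 7.37 and 7.16 CPM in aged and young steady-state marrow, with a log2 fold change of 1.35 ± 0.19 (edgeR adjusted p = 1.1e-07). Within granulocyte-monocyte progenitors Icam1 was at 15.03 and 11.7 CPM in aged and young stroke marrow, against 5.88 and 5.45 CPM in aged and young steady-state marrow. The median depth of these progenitors was uneven, at 26566 and 1563.5 UMIs in aged and young stroke marrow and 17130 and 12801 UMIs in aged and young steady-state marrow. In stem cells Icam1 was at 21.2 and 17.7 CPM in aged and young stroke marrow and at 19.7 and 21.2 CPM in aged and young steady-state marrow, where the libraries overlapped; the difference between these cell types was not tested. Sod2 was higher at 0.57 ± 0.11 (edgeR adjusted p = 1.4e-05), with 186 and 167 CPM in aged and young stroke marrow against 154 and 135 CPM in aged and young steady-state marrow. Zfp36 was higher at 0.67 ± 0.16 (edgeR adjusted p = 0.00077), and with total counts at 0.38 and not called (edgeR adjusted p = 0.066). None of the 3 was called in thinned cells. Over the libraries Zfp36 ranged from 22.9 to 55.3 CPM in stem cells and from 10.65 to 12.69 CPM in granulocyte-monocyte progenitors. Stem cells held 2966075 of 12749181 progenitor UMIs in aged and 2482021 of 6656579 in young stroke marrow. At steady state they held 1620341 of 15051031 in aged and 1843794 of 16899738 in young marrow. The part of this mix in the pooled progenitor values was not tested.

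With age, Zfp36 was lower in aged blood in each class that could be compared there. In mature neutrophils it was at 871 CPM (11133 counts) in aged and 1250.1 CPM (7753 counts) in young blood, a log2 ratio of -0.52 (95% counting interval -0.56 to -0.48). In classical monocytes the ratio was -0.71 (-0.85 to -0.57) in blood, in non-classical monocytes -0.34 (-0.56 to -0.12), in B cells -0.65 and in NK cells -1.20. In classical monocytes of steady-state marrow it was -0.57 (-0.86 to -0.28), while in those of stroke marrow it was -0.09 (-0.31 to 0.14). In blood most classical monocytes came from different clusters at the 2 ages, 468 of 490 aged cells from one and 84 of 95 young cells from another. In mature neutrophils of stroke marrow, with 38 and 119 counts, it was 0.01 (-0.55 to 0.55). Immature neutrophils had a ratio of 0.06 in stroke marrow and -0.35 in steady-state marrow. Whether the ratio differed between stroke and the other contexts was not tested. The erythroid cells of blood had the same direction, with 176.8 CPM in aged and 447 CPM in young blood.

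The blood neutrophils fell into 5 clusters whose shares differed by age, and 2 of them held 45.4% and 40.1% of the mature neutrophils of aged blood but 12.3% and 8.30% of those of young blood. Within the 5 clusters the log2 ratio of Zfp36 was -0.42, -0.42, -0.43, -0.56 and -1.64, so it was below 0 in each. Nfkbiz was at 378.8 CPM in aged and 499 CPM in young blood neutrophils, with a pooled ratio of -0.40 (-0.46 to -0.33). Within clusters its ratio was 0.15, -0.09, -0.39, -0.60 and -0.49, which includes the opposite sign in the cluster most common in aged blood. The pooled ratio of Nfkbia was -0.21 (-0.30 to -0.12), and within clusters it ran from -0.41 to 0.19. Sod2 went the other way, with a pooled ratio of 0.61 (0.32 to 0.90) in blood neutrophils. Where both ages had counts, its ratio within clusters ran from 0.10 to 0.70, and each counting interval included 0. The smallest cluster had 0 aged and 6 young counts of Sod2. Summed immediate-early genes in these neutrophils were 15890 CPM in aged and 18150 CPM in young blood, and the neutrophil RNA seen in erythroid cells was 18.8% of the neutrophil level in aged and 33.3% in young blood. Their part in the age ratios was not tested.

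**Figure D3:**
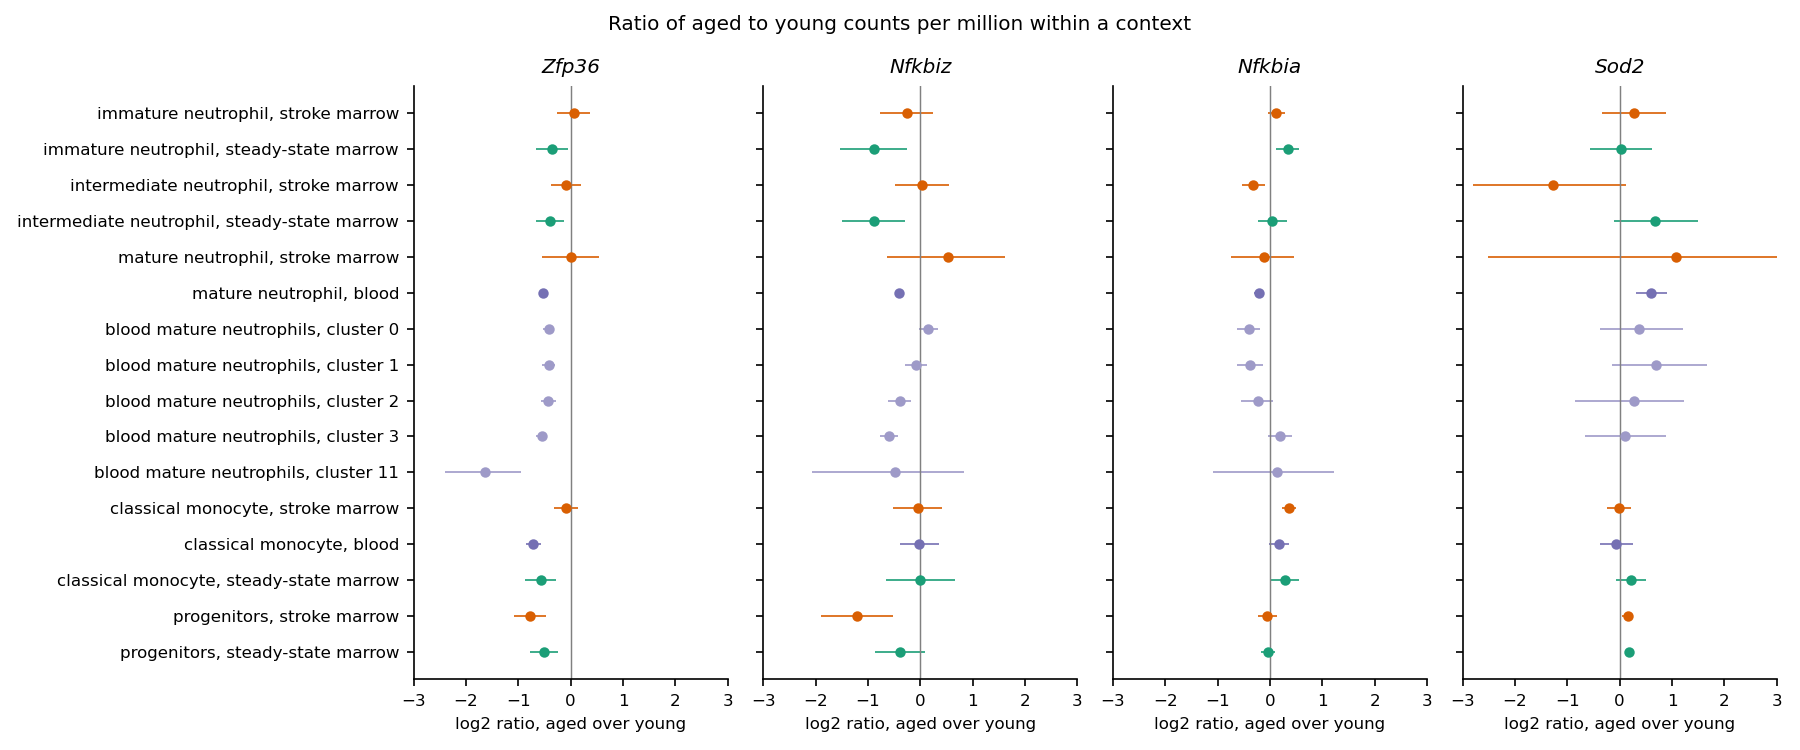
Log2 ratio of the level in aged over young libraries for Zfp36, Nfkbiz, Nfkbia and Sod2, by class and context and within the clusters of blood neutrophils; points are ratios of summed counts and bars are 95% counting intervals of 1 library against 1. Zfp36 is below 0 in blood and steady-state marrow, while in stroke marrow classical monocytes are at -0.09, mature neutrophils at 0.01 and progenitors at -0.77.

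No member passed edgeR's test of age in neutrophils or monocytes when contexts were averaged, and DESeq2's Wald test called 0 as well in immature neutrophils, joined neutrophils and monocytes. In immature neutrophils 0 of 7 members were called, with 0.32% of 7498 genes called (0.24% higher, 0.08% lower) and 431 genes at an unadjusted p under 0.05. In intermediate neutrophils it was 0 of 6, with 0.0153% of 6524 genes called, all lower, and 344 at an unadjusted p under 0.05. In mature neutrophils, with at least 20 cells, it was 0 of 8, with 0.0344% of 8730 genes called (0.0115% higher, 0.0229% lower) and 181 at an unadjusted p under 0.05. In immature, intermediate and mature neutrophils joined it was 0 of 8, with 0.0487% of 10266 genes called, all lower, and 696 at an unadjusted p under 0.05. In classical monocytes it was 0 of 8, with 0.108% of 10148 genes called (0.0985% higher, 0.00985% lower) and 641 at an unadjusted p under 0.05. For Zfp36 the log2 fold change was -0.37 ± 0.11 in joined neutrophils (SE, edgeR adjusted p = 0.55) and -0.47 ± 0.14 in classical monocytes (edgeR adjusted p = 0.49). For Nfkbiz it was -0.44 ± 0.14 in joined neutrophils (edgeR adjusted p = 0.59) and -0.04 ± 0.14 in classical monocytes (edgeR adjusted p = 0.99). The unadjusted p of Zfp36 was 0.0075 in joined neutrophils and 0.0067 in monocytes. The joined value also carries the mix of stages: in stroke marrow the joined ratio was -0.37, while it was 0.06 in immature, -0.09 in intermediate and 0.01 in mature cells, and mature cells were 25 of 453 in the aged and 61 of 359 in the young library.

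In progenitors 1 of 8 members was called, against 1.01% of 14034 genes (0.399% higher, 0.613% lower). Zfp36 was at 14.5 CPM in aged and 24.8 CPM in young stroke marrow, and at 12.2 CPM in aged and 17.3 CPM in young steady-state marrow. Its log2 fold change was -0.61 ± 0.16 (edgeR adjusted p = 0.044), close to the threshold, and the call held under 1 of 8 alternatives. Within stem cells the log2 ratio was -1.03 (95% counting interval -1.48 to -0.58) in stroke marrow and -1.13 (-1.69 to -0.59) in steady-state marrow. In granulocyte-monocyte progenitors the ratio was 0.03 (-0.47 to 0.54) in stroke marrow and -0.25 (-0.58 to 0.07) in steady-state marrow, and the difference between these cell types was not tested. In stroke marrow stem cells held 2966075 of 12749181 progenitor UMIs in the aged and 2482021 of 6656579 in the young library. The part of this mix in the pooled Zfp36 value was not tested. Of the other pathway genes, 2 of 46 were called higher in aged immature neutrophils, Bcl3 at 1.64 ± 0.38 (edgeR adjusted p = 0.0072) and Clec4e at 0.83 ± 0.19 (edgeR adjusted p = 0.0082). Bcl3 rests on 82 aged against 17 young counts in stroke marrow and on 9 against 3 in steady-state marrow. Clec4e, a C-type lectin receptor, was at 78.2 and 39.5 CPM in aged and young stroke marrow, and at 24.4 and 18.1 CPM in aged and young steady-state marrow. None of 60 other genes was called in joined neutrophils and none of 59 in classical monocytes. In aged progenitors Ccl3 (-1.78), Ccl4 (-1.09) and Zfp36l2 (-0.48) were lower and Lcn2 (0.54) was higher, out of 61 tested.

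**Figure D4:**
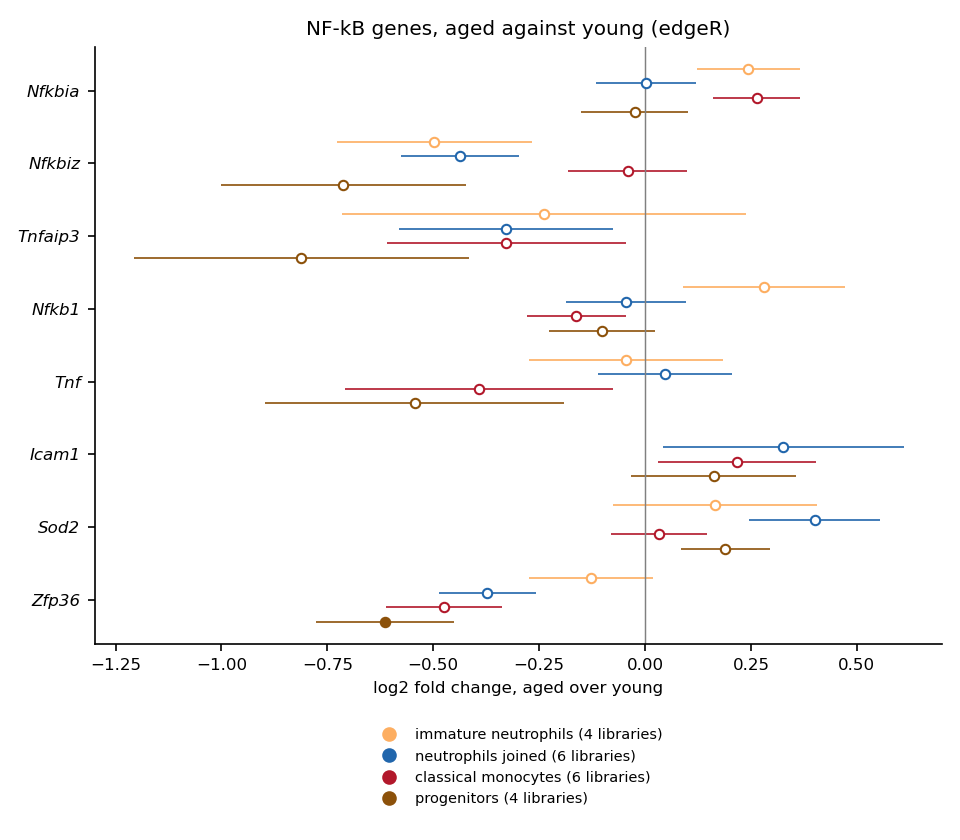
Log2 fold change of aged over young with standard errors from edgeR for the 8 genes in immature neutrophils, joined neutrophils, classical monocytes and progenitors; filled points have an adjusted p under 0.05. Zfp36 in progenitors, at -0.61, is the filled point, and the Zfp36 values of -0.37 in joined neutrophils and -0.47 in classical monocytes are open.

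Over 19 sums of a class in a library, the genes whose levels followed a member most closely were ranked by Pearson's correlation of log2(CPM + 20) among 5099 genes with a mean of at least 20 CPM, as a description over sums that share libraries and depth. Pde4b (r = 0.982) and Hexim1 (0.976) were among the genes that followed Nfkbiz closely, and Zfp36 was followed most closely by Cd44 (0.964) and Ssh2 (0.963). For Nfkb1 these were St3gal1 (0.980) and Pou2f2 (0.977), for Icam1 Tmem259 (0.972) and Zbp1 (0.971), and for Sod2 Ociad1 (0.988) and Emc10 (0.981). Tnfaip3 was closest to Pcnx (0.949). Nfkbia and Tnf had no close companion, with Arhgef1 (0.855) and Limd2 (0.838) at the top. Between members the closest pairs were Nfkbiz with Zfp36 (0.938) and Nfkb1 with Icam1 (0.922), whereas Nfkbia had correlations of 0.03 to 0.47 with the others.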

How the data were processed

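UMI counts per gene and cell were deposited as count tables by the authors. Per the submitters' processing notes the genome build was GRCm38 and the tools included STAR 2.5.3a, featureCounts 1.6.4 of Subread, Cell Ranger 3.0.2 and UMI-tools; their roles, the strand setting and the treatment of reads that map to several genes are not given in the sources used here. Zfp36 overlaps Gm44710 (18 UMIs in all) and Nfkb1 overlaps Gm43430 (1346 UMIs), from which reads cannot be told apart.

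From the 28055 deposited barcodes, cells with at least 500 UMIs, 200 genes and at most 10% mitochondrial counts were kept, and cells with a simulated-doublet score over 0.25 were removed. Cells were clustered with leidenalg 0.10.2 at resolution 1 on 2000 variable genes, 30 components and 15 neighbours, without 79 pathway genes. Clusters were named from marker lists, and the thresholds for a name were set after cluster tables had been seen. Counts were summed per class and library, with at least 30 cells, and fitted over all genes with edgeR 4.0.16 (TMM, quasi-likelihood, Benjamini-Hochberg threshold 0.05). Age fits had the context as a block, stroke fits the age and class fits the library. Class fits compare clusters built from other genes of the same cells, and their p-values measure the spread between libraries. Mature against immature neutrophils had only 2 libraries to measure it from. Because 2 comparisons could not be fitted at 30 cells, they are given at 20 cells. Fits were tested on simulated data. Intervals are exact at 95%, the floor is 3 counts, and thinning drew 1000 UMIs per cell. DESeq2 1.42.0 was an alternative. Gene models are GENCODE M21. The members, the gene lists and the rule for named genes (the called list genes with the largest fold changes, up to 4 per list) were chosen with earlier results of these data known. A correlation with Nfkbiz is not reported here.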

Additional observations from a re-analysis of the deposited data

How the results depend on the processing

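No paired analysis was possible because each group is 1 library, with no replicate numbers to pair across groups; blocks for library, context or age are part of the reported fits. Of 112 counts of called members under alternatives, 92 stayed within 1.5 times of the reported count. Of 434 fold changes, 355 kept direction and side of the threshold, 48 lost and 21 gained a call, and 10 reversed. The cause of a change was not tested, except that thinning leaves fewer counts. In cells thinned to 1000 UMIs, members called fell to 0 in stroke immature neutrophils, 1 in stroke monocytes, 0 in stroke progenitors, 1 in immature against dividing cells and 1 in blood monocytes, and age ratios whose interval left out 0 fell to 6, against 22 of 72 unthinned; 5 members, against 4, had a higher mean in mature neutrophils than in classical monocytes. In aged progenitors 0 members were called with DESeq2 size factors, total counts, DESeq2's Wald test, doublets kept, resolution 0.5, clustering with the pathway genes and thinning, with an adjusted p of 0.18 or more. In stroke immature neutrophils, against 1, there were 2 with total counts, 2 at resolution 0.5, 3 when clustered with the pathway genes and 2 in intermediate cells. In stroke monocytes, against 5, there were 3 with total counts and 1 with DESeq2's Wald test. In monocytes against mature neutrophils, against 7, leaving out 1 library gave 4 to 8 (4 without young blood). Leaving out 1 library gave 4 to 5 in immature against dividing cells and 0 in the age tests of joined neutrophils and of monocytes; with 4 sums it could not be fitted. Signs turned for Zfp36 in stroke immature neutrophils (reported -0.11) to 0.055 with doublets kept, 0.074 at resolution 0.5, 0.41 thinned and 0.19 in intermediate cells; for Nfkbiz (-0.39) and Zfp36 (-0.23) in stroke monocytes with doublets kept and Sod2 (-0.027) with total counts; for Nfkbia in stroke progenitors (0.29) to -0.057 with doublets kept and Nfkb1 (-0.15) to 0.21 thinned; for Nfkb1 in immature against dividing cells (0.24) to -0.080 with total counts; and within blood clusters for Nfkbia (0.19 and 0.13) and Nfkbiz (0.15). Comparisons at 20 cells or more, total counts, the intermediate cells and the blood-cluster alternatives were added after seeing the data. Depth limits Tnfaip3, Tnf and Icam1 in stroke mature neutrophils, with 0 to 3 counts each.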
